A study of Saccharomyces cerevisiae with 4 samples.

Results

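The 5.8S rRNA and the internal transcribed spacer 2 (ITS2), which lies between 5.8S and 25S in the pre-rRNA, were examined in RNA that had been cross-linked in living yeast and recovered with or without a tagged helicase. Both were taken by name from the deposited profiles of the 35S pre-rRNA, as the blocks RDN58-2 and ITS2-2. A last row of the ITS2 block that repeats the first nucleotide of 25S was left out, and each block was numbered from 1 at its 5′ end. They are 2 of the 7 blocks of the transcript and hold 390 of its 6858 nucleotides and 130 of its 1920 uridines. The 5.8S rRNA has 158 nucleotides, of which 44 are uridines, and ITS2 has 232, of which 86 are uridines. Both lengths match the entries of these names (YNCL0023C and YNCL0022C) in the RefSeq gene table.

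In yeast the 35S pre-rRNA is cut into the precursors of the 18S, 5.8S and 25S rRNAs, and the spacers between them are removed. The 5.8S rRNA stays paired with 25S in the large subunit, and its 5′ end exists in a short and a long form. ITS2 keeps the 2 rRNAs of the large subunit together in early pre-60S particles until Las1 cuts it at site C2, after which the exosome trims the 3′ side of 5.8S and Rat1 trims the 5′ side of 25S.

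The method was PAR-CRAC, a form of cross-linking and cDNA analysis with a photoreactive uridine analog, used in the study to find where the DEAD-box helicase Dbp7, an assembly factor of the large subunit, contacts RNA. Cells fed 4-thiouracil were irradiated at 365 nm, so that a uridine in contact with protein could be cross-linked and then read as a T-to-C substitution. The 2 strains share the background BY4741. WT carried no tagged protein and measures what the purification recovers without one, whereas Dbp7-HTP carried Dbp7 with a C-terminal His-Tev-ProtA tag, expressed from its own genomic locus. The tag is taken from the titles and sample characteristics and from the methods of the study, since the growth text that all 4 labels share names Has1, Mak5 or Spb4 as the tagged protein and not Dbp7. Each strain has 2 libraries from independent experiments, numbered 1 and 2 in the labels, so that an exact permutation test of 2 against 2 libraries has 0.333 as its smallest two-sided p and cannot reach 0.05.

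The 5.8S sequence is shown first with capitals at the 12 uridines whose substituted share of the covering reads was higher in both Dbp7-HTP libraries than in both WT libraries, and then with capitals at the 19 uridines where it was lower. The 12 and 19 are 27.3 and 43.2% of the 44 uridines of 5.8S. Over the 1363 uridines of the 35S pre-rRNA covered by at least 20 reads in every library, 25.8% were higher and 29.6% lower. Letters are those of the deposited profiles, with T for U.
5.8S, uridines higher: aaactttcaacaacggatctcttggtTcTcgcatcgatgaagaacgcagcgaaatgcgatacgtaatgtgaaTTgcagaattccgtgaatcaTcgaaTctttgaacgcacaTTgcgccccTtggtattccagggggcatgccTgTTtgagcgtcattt
5.8S, uridines lower: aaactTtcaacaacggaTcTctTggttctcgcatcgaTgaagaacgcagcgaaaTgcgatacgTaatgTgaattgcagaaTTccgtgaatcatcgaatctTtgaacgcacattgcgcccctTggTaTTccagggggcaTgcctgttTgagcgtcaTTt
The middle of ITS2, from nucleotide 61 to 140, is shown in the same way, with capitals at the 7 uridines that were higher and the 5 that were lower among those covered by at least 20 reads in every library.
ITS2, uridines higher: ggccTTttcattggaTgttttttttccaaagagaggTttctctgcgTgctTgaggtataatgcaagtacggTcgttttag
ITS2, uridines lower: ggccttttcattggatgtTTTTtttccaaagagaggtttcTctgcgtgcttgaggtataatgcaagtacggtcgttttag

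Coverage, the number of reads over a nucleotide, was set against the total reads of each library and is given as RPM, that is, scaled to 1000000 reads. The second replicates had totals of 467529 (WT) and 730583 reads (Dbp7-HTP), and those of the first replicates were estimated at 159127 (WT) and 1214217 reads (Dbp7-HTP). Summed 35S coverage ranged from 781016 to 9724303 reads over nucleotides, with WT replicate 1 the shallowest library. At 5.8S the mean coverage was 307 reads in WT replicate 1, 683 in WT replicate 2, 3263 in Dbp7-HTP replicate 1, and 1760 in its replicate 2. At ITS2 it was 13.7, 23.3, 97.1 and 51.4 reads in the same order, so that single positions of ITS2 in WT rest on few reads. WT replicate 2 stood apart in its 5.8S profile, as described below, and the main differences that moved by over 1.5 times without 1 of the WT libraries are also given without it.

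Coverage of the 5.8S rRNA was higher with Dbp7-HTP relative to all reads and lower relative to the 35S pre-rRNA. Mean coverage of 5.8S was 1928 RPM in WT replicate 1, 1460 in WT replicate 2, 2688 in Dbp7-HTP replicate 1, and 2409 in its replicate 2. Both Dbp7-HTP libraries lay above both WT libraries. On the log2(RPM + 1) scale the difference was 0.60, with SDs of 0.28 (WT) and 0.11 (Dbp7-HTP) (n = 2 each, exact permutation test, two-sided, p = 0.333), and it was 0.40 without WT replicate 2. As a share of 35S coverage, 5.8S made up 6.21 and 5.78% in WT and 5.30 and 4.90% with Dbp7-HTP, in the order of the replicates. Here the strains were again apart, but with Dbp7-HTP 0.89 points lower (SDs 0.30 and 0.28 points, n = 2 each, exact permutation test, two-sided, p = 0.333). The direction turned when 25S was left out of the denominator, where the share of 5.8S was 23.1 points higher with Dbp7-HTP. The 5.8S rRNA makes up 2.30% of the length of the transcript, so that it was covered above its length share in every library.

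Set against 25S, the rRNA it is paired with, 5.8S was less covered with Dbp7-HTP. The mean coverage of 5.8S divided by that of 25S was 2.22 and 2.49 in WT and 1.32 and 1.22 with Dbp7-HTP, a log2 difference of -0.89 (WT SD 0.12, Dbp7-HTP SD 0.079, n = 2 each, exact permutation test, two-sided, p = 0.333). Coverage of 5.8S per nucleotide was thus above that of 25S in all 4 libraries, and the strains did not overlap. Mean coverage of 25S itself was 869 and 586 RPM in WT and 2031 and 1967 with Dbp7-HTP.

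Along 5.8S, coverage formed 3 blocks, near the 5′ end, around nucleotides 65 to 106 and from nucleotide 111 to the 3′ end. In 3 of the 4 libraries the 5′ block was the highest. Nucleotides 1 to 40 held 36.9% of the 5.8S coverage in WT replicate 1, 38.1% in Dbp7-HTP replicate 1, and 39.6% in its replicate 2, but 8.02% in WT replicate 2. Conversely, nucleotides 101 to 150 held 49.9% in WT replicate 2 and 23.9, 23.2 and 22.8% in the other libraries. The highest coverage was at U22 in WT replicate 1 (3199 RPM), at U26 in both Dbp7-HTP libraries (4663 and 4414 RPM) and at U128 in WT replicate 2 (2783 RPM). WT replicate 1 therefore resembled the Dbp7-HTP libraries in shape more than it resembled the other WT library. Across the 158 nucleotides, which share reads with their neighbours, Pearson's r between profiles was 0.97 for the Dbp7-HTP pair, 0.98 and 0.97 for WT replicate 1 with each of them, and -0.06 for the WT pair (Spearman's rho 0.94, 0.97, 0.96 and -0.07).

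**Figure D1:**
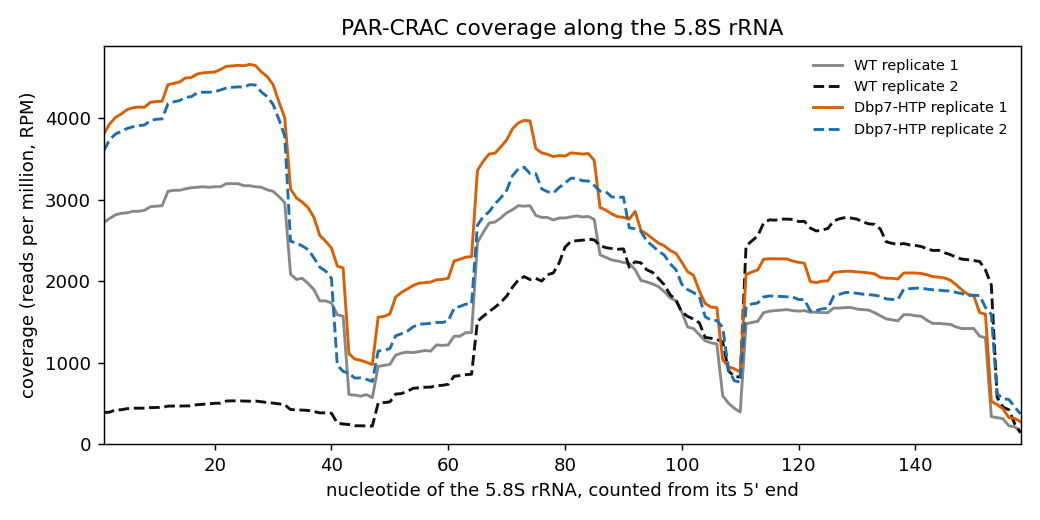
Coverage of each nucleotide of the 5.8S rRNA in RPM, one line per library, against the nucleotide number from the 5′ end. WT replicate 2 peaks at U128 with 2783 RPM and has 533 RPM at U23, whereas the other 3 libraries peak at U22 or U26 with 3199 to 4663 RPM.

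The whole 35S pre-rRNA was compared in 20-nt windows with limma (Benjamini-Hochberg adjustment). In the main fit, with no term for the replicate number, no window of 5.8S or ITS2 passed an adjusted p of 0.05. Of the 20 windows of the 2 blocks, 0 were higher and 0 lower with Dbp7-HTP, where over all 334 windows tested 64 were higher (19.2%) and 57 lower (17.1%). At an unadjusted p under 0.05, where 85 of all 334 windows were higher, none of ITS2 was and 2 of the 8 windows of 5.8S were. They were nucleotides 1 to 20, with 2980 and 453 RPM in WT and 4273 and 4048 RPM with Dbp7-HTP (log2 difference 1.84, SE 0.77, limma adjusted p = 0.0857), and nucleotides 21 to 40, with 2646 and 472 RPM in WT and 3824 and 3482 RPM with Dbp7-HTP (log2 difference 1.71, SE 0.73, limma adjusted p = 0.0896). Both differences rest on WT replicate 2. Without WT replicate 1 they were 3.19 and 2.95, whereas without WT replicate 2 they were 0.48 and 0.46. How many windows of the 2 blocks passed also depended on the WT library left out. The share over all windows was not computed for those refits. With a term for the replicate number (a replicate block), both windows passed (limma adjusted p = 0.00748 and 0.0137).

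The other 6 windows of 5.8S had log2 differences from -0.09 to 0.98. From the third window on, the difference became smaller toward the 3′ end, from 0.98 at nucleotides 41 to 60 through 0.58 and 0.33 to 0.12 at nucleotides 101 to 120. This decline rests on WT replicate 2. Without that library the differences of the same windows were 0.46, 0.31, 0.33 and 0.41. Without WT replicate 1 the decline remained and reached -0.18 at nucleotides 101 to 120. With all libraries, the lowest difference was at nucleotides 121 to 140. Coverage there was 1615 and 2632 RPM in WT and 2078 and 1800 RPM with Dbp7-HTP, so that both Dbp7-HTP libraries lay between the WT libraries. The median over the 8 windows of 5.8S was 0.46, beside 0.17 over all 334 windows. With coverage scaled to the 35S total, 15 windows of the 2 blocks were tested and 0 passed in either direction, beside 36 higher (12%) and 101 lower (33.8%) of 299, and the median over 5.8S was -0.37 beside -0.55 over all windows.

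Part of the edges of the coverage blocks fell at the same nucleotides in all 4 libraries, and part of them differed between the replicate numbers. Coverage stepped up between nucleotides 64 and 65 by 21.9 to 34.6% of the highest 5.8S coverage of the library, and between 110 and 111 by 21.1 to 57.8%, in all 4 libraries. Downward steps of at least 10% lay between nucleotides 106 and 107 in both first replicates (19.8 and 13.7% of the highest coverage) and between 107 and 108 in both second replicates (12.8 and 11.7%). At the 3′ side the large step lay between nucleotides 152 and 153 in the first replicates and between 153 and 154 in the second. Coverage of nucleotide 153, as a share of that at nucleotide 148, was 23.9% in WT replicate 1 and 27.9% in Dbp7-HTP replicate 1, but 86.2% in WT replicate 2 and 86.3% in Dbp7-HTP replicate 2. The position of this edge thus went with the replicate number and not with the strain. Steps of at least 10% between nucleotides 42 and 43 and between 85 and 86 were found in both first replicates and in neither second replicate. Other edges followed neither the strain nor the number. Coverage stepped down between nucleotides 32 and 33 by 18.8 to 29.2% in 3 libraries but by 2.15% in WT replicate 2, and between 40 and 41 by 24.1% in Dbp7-HTP replicate 2 alone, against 4.30 to 4.77% in the others.

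Past this edge, coverage dropped again before the annotated end of 5.8S. At nucleotide 158, the last of 5.8S, it was 11.5 and 6.12% of that at nucleotide 148 in WT and 14.6 and 20.1% with Dbp7-HTP. At nucleotide 1 of ITS2 it was 6.64 and 2.35% in WT and 2.48 and 3.11% with Dbp7-HTP, so that the strains overlapped there. Most reads over the 3′ part of 5.8S therefore ended short of ITS2 in both strains.

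**Figure D2:**
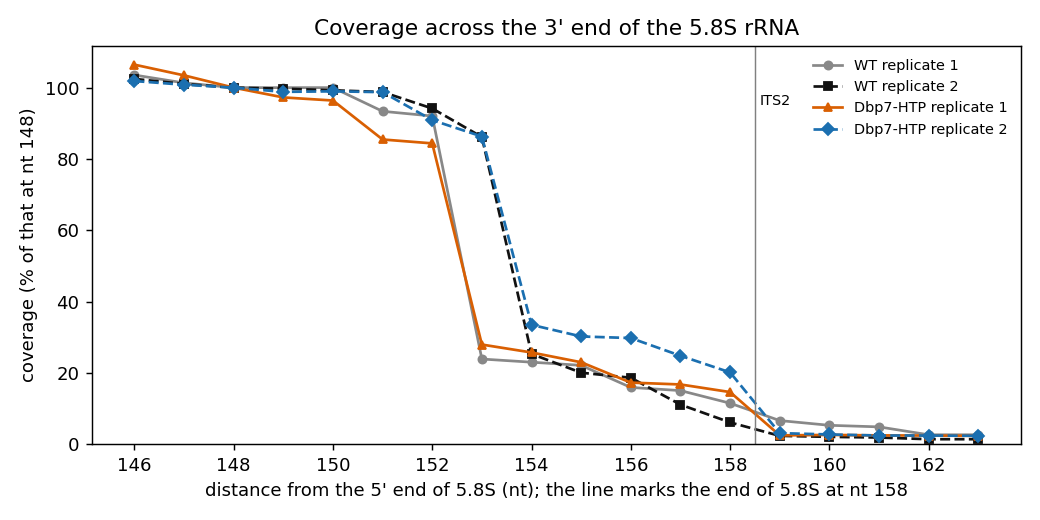
Coverage from nucleotide 146 of 5.8S to nucleotide 5 of ITS2, in percent of the coverage at nucleotide 148 of the same library. The first replicates (solid lines) drop after nucleotide 152 and the second replicates (dashed lines) after nucleotide 153, whichever the strain, with 23.9 and 27.9% against 86.2 and 86.3% left at nucleotide 153.

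At the 5′ end of 5.8S, reads that reached into ITS1 were few in both strains. Coverage of the last nucleotide of ITS1 was 17.8 and 21.3% of that at nucleotide 10 of 5.8S in WT and 18.9 and 14.4% with Dbp7-HTP. It was down to 2.37 and 4.74% in WT and 3.17 and 2.95% with Dbp7-HTP at ITS1 nucleotide 356, the sixth before 5.8S, and to between 0.645 and 1.47% at ITS1 nucleotide 350. The last 10 nucleotides of ITS1 are shown because the long form of 5.8S begins within them.
ITS1, last 10 nucleotides: aaaatattaa
At none of these 3 nucleotides were the strains apart.

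Substitutions mark the uridines themselves, and they were unevenly spread over 5.8S. Summed over its uridines, 9.67 and 9.17% of the covering reads were substituted in WT and 9.60 and 9.66% with Dbp7-HTP. The 5 uridines with the highest mean substitution RPM were U74, U29, U127, U81 and U23. Since the authors kept only reads that carry a T-to-C change, a percentage here is a share of reads that are substituted somewhere, and it depends on the other uridines of the same read. The percentages do not depend on the total reads. Intervals are 95% Wilson intervals, and where no read was substituted the share that 3 counts would make up is given as the limit in place of an interval. Both cover counting error only.

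Counts of substitutions were compared with edgeR's quasi-likelihood test over the uridines of the whole 35S pre-rRNA with a mean of at least 10 RPM. Of the 60 tested uridines of the 2 blocks (43 of 44 in 5.8S and 17 of 86 in ITS2), 1 had more substitutions with Dbp7-HTP and 0 had fewer. Over all 1306 uridines tested, 190 had more (14.5%) and 141 fewer (10.8%). The median log2 difference was 0.76 over the tested uridines of 5.8S and 0.29 over those of ITS2, beside 0.16 over all. The share of members past the test was thus below that of the transcript in both directions. The count depended on the libraries kept, rising without either WT library and falling without either Dbp7-HTP library. With the summed substitutions as library size, 1 had more and 7 had fewer. The share over all uridines was not computed for these refits.

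The uridine that passed was U145 of 5.8S. Substitutions at U145 amounted to 113 RPM in WT replicate 1, 62.0 in WT replicate 2, 561 in Dbp7-HTP replicate 1, and 537 in its replicate 2. The log2 difference was 2.68 (edgeR adjusted p = 0.0231, DESeq2 adjusted p = 0.00409). Coverage at U145 in RPM did not separate the strains, being 1477 and 2351 in WT and 2041 and 1883 with Dbp7-HTP. In reads it was 235, 1099, 2478 and 1376, with 18, 29, 681 and 392 substitutions. The substituted share at U145 was 7.66% in WT replicate 1 (interval 4.90 to 11.8%), 2.64% in WT replicate 2 (1.84 to 3.76%), 27.5% in Dbp7-HTP replicate 1 (25.8 to 29.3%) and 28.5% in its replicate 2 (26.2 to 30.9%). The difference in means was 22.8 points, with SDs of 3.55 points (WT) and 0.71 (Dbp7-HTP) (n = 2 each, exact permutation test, two-sided, p = 0.333). Among the 1363 uridines of the 35S pre-rRNA covered by at least 20 reads in every library, this difference ranked 23 from the highest. The log2 difference at U145 was 2.63 without Dbp7-HTP replicate 1 and 2.70 without its replicate 2. It was 3.14 without WT replicate 1 and 2.28 without WT replicate 2. The call was lost without either Dbp7-HTP library and held without either WT library, in fits that leave a strain with 1 library.

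U145 is the first nucleotide of the longest perfect complementarity between the last 40 nucleotides of 5.8S and the first 40 of 25S. It spans 6 nucleotides, 145 to 150 of 5.8S with 8 to 13 of 25S, shown in capitals.
5.8S, nucleotides 139 to 158: tgcctgTTTGAGcgtcattt
25S, nucleotides 1 to 20: gtttgacCTCAAAtcaggta
The complementarity is a feature of the letters and was not tested as a structure. Coverage of the 5.8S strand was 1441 and 2294 RPM in WT and 1928 and 1855 RPM with Dbp7-HTP. On the 25S strand it was 1185 and 421 RPM in WT and 481 and 388 RPM with Dbp7-HTP.

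The 5 most substituted uridines of 5.8S did not pass the test, and their shares went both ways. At U74 the share was 45.7 and 25.3% in WT and 53.3 and 56.4% with Dbp7-HTP (edgeR adjusted p = 0.223 for the counts). This was the highest share of 5.8S in both Dbp7-HTP libraries and in WT replicate 1. At U29 it was 33.4 and 32.6% in WT and 38.7 and 43.8% with Dbp7-HTP (edgeR adjusted p = 0.186). At U127, by contrast, it was 36.5 and 53.7% in WT and 24.3 and 24.9% with Dbp7-HTP (edgeR adjusted p = 0.204), and the difference of -20.5 points ranked 14 from the lowest among the 1363 uridines. At U81 it was 18 and 41.1% in WT and 11.6 and 16.4% with Dbp7-HTP (edgeR adjusted p = 0.387). At U23 it was 22.4 and 19.7% in WT and 17.8 and 17.4% with Dbp7-HTP (edgeR adjusted p = 0.396). Lack of overlap was common, since 352 of the 1363 uridines were higher and 404 lower in both Dbp7-HTP libraries. The strains did not overlap at any of these 5 uridines, although the SD between the WT libraries was 14.4 points at U74, 16.3 at U81 and 12.2 at U127. The sizes rest on single WT libraries. The difference at U74, 19.3 points, was 29.6 without WT replicate 1 and 9.14 without WT replicate 2. At U81 the difference of -15.5 points was -27.1 and -4.01 in the same order. That at U127 was -11.8 points without WT replicate 2, and that at U23 went from -3.46 to -2.10 points without WT replicate 1.

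Neighbouring uridines could differ widely. Chosen after the values were seen, U113 had 9.17 and 2.68% in WT and 20.7 and 17.4% with Dbp7-HTP, whereas U112 beside it stayed between 1.80 and 2.53% in all libraries. Likewise U143 had 1.27 and 1.98% in WT and 6.37 and 5.99% with Dbp7-HTP. U73, a known site of pseudouridine in yeast 5.8S, had 10.3 and 5.51% in WT and 17.3 and 15.2% with Dbp7-HTP. In the 3′ part of 5.8S the share was higher at U112, U113, U121, U143, U145 and U146. It was lower at U122, U125, U127, U128, U139, U147, U156 and U157. At U147, within the complementarity that begins at U145, it was 6.99 and 2.33% in WT and 1.64 and 1.76% with Dbp7-HTP. U113, U143 and U73 did not pass the test of counts (edgeR adjusted p = 0.0554 at U113, 0.0654 at U143 and 0.102 at U73).

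Over all 44 uridines of 5.8S, the share was higher in both Dbp7-HTP libraries than in both WT libraries at 12 and lower at 19, with the remaining 13 overlapping. In the whole 35S pre-rRNA, of 1363 uridines covered by at least 20 reads in every library, 352 were higher (25.8%) and 404 lower (29.6%). The share of higher uridines in 5.8S, 27.3%, was near the background, and that of lower ones was 43.2%. Across the 44 uridines, Pearson's r of the shares was 0.99 between the Dbp7-HTP libraries and 0.84 between the WT libraries (Spearman's rho 0.98 and 0.80). WT replicate 1 had an r of 0.86 and 0.88 with the Dbp7-HTP libraries, and WT replicate 2 one of 0.61 and 0.66.

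With the coverage of each nucleotide as an offset, so that edgeR tested substitutions per covering read, no uridine passed an adjusted p of 0.05 in either direction, among the 60 of 5.8S and ITS2 or among all 1306 (0%). At an unadjusted p under 0.05, 5 uridines of 5.8S were higher and 8 lower, and 0 of ITS2 were higher and 2 lower, where over all uridines 130 were higher and 164 lower. U145 had a log2 difference of 2.65 per covering read in this fit (edgeR adjusted p = 0.0936). Without WT replicate 1, and also without WT replicate 2, some uridines of the 2 blocks passed in the same fit, in both directions. Their share over the transcript was not computed. The log2 difference per covering read at U145 was 3.40 without WT replicate 1 and 1.87 without WT replicate 2.

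**Figure D3:**
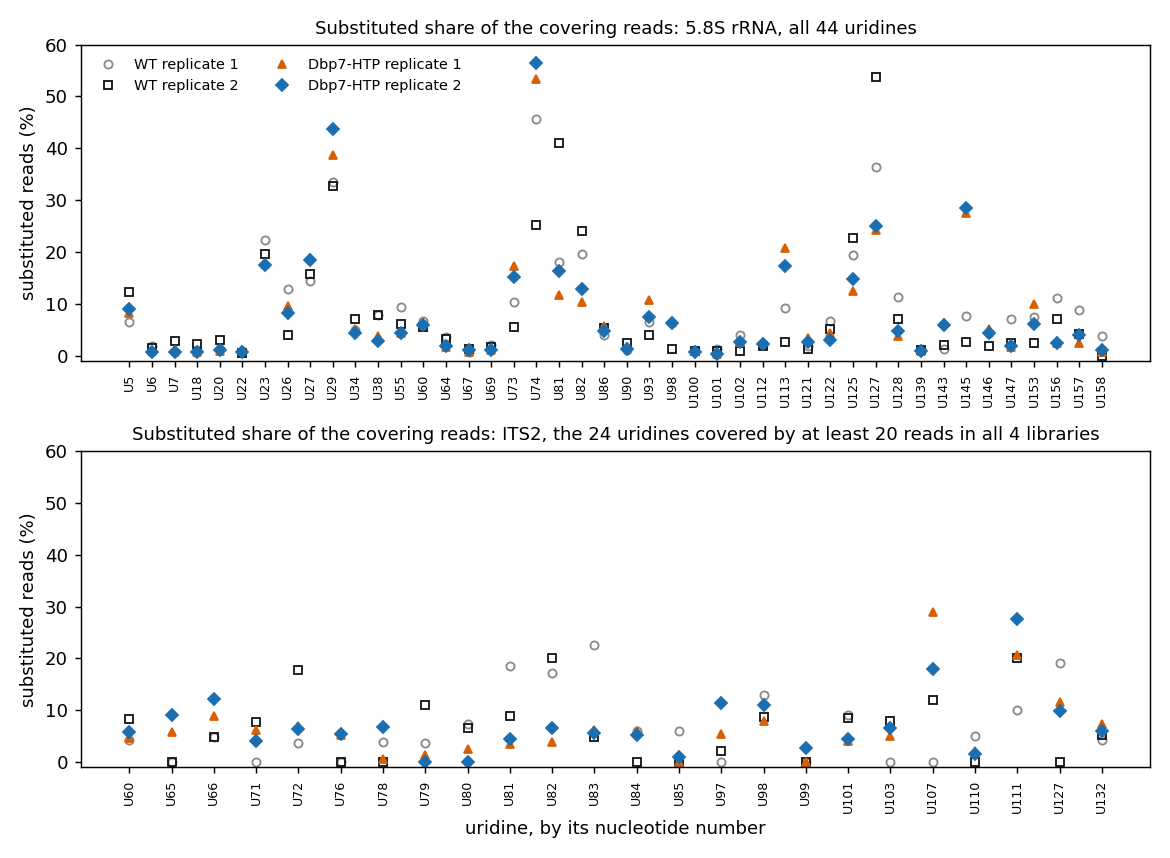
Share of the covering reads that carried a substitution, in percent, at every uridine of 5.8S (top) and at the 24 uridines of ITS2 covered by at least 20 reads in every library (bottom), 1 symbol per library. At U145 of 5.8S the Dbp7-HTP libraries are at 27.5 and 28.5% and the WT libraries at 7.66 and 2.64%, while at U127 the WT libraries are the higher ones.

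ITS2 was covered far less than 5.8S, and its coverage did not separate the strains. Mean coverage of ITS2 was 86.4 RPM in WT replicate 1, 49.9 in WT replicate 2, 80.0 in Dbp7-HTP replicate 1, and 70.3 in its replicate 2. Both Dbp7-HTP libraries lay between the WT libraries, with a log2 difference of 0.19 (WT SD 0.55, Dbp7-HTP SD 0.13, n = 2 each, exact permutation test, two-sided, p = 1). It was 0.58 without WT replicate 1 and -0.20 without WT replicate 2. Scaled to the 35S coverage the difference was -0.59 and the strains were apart. ITS2 made up 0.408 and 0.290% of the 35S coverage in WT and 0.232 and 0.210% with Dbp7-HTP, beside 3.38% of the length. The difference of -0.128 points was -0.0693 without WT replicate 1, and with 25S left out of the denominator it was 0.79. Divided by the mean coverage of 5.8S, that of ITS2 was 0.0448 and 0.0342 in WT and 0.0298 and 0.0292 with Dbp7-HTP, a log2 difference of -0.41 (SDs 0.27 and 0.019, n = 2 each, exact permutation test, two-sided, p = 0.333), and of -0.21 without WT replicate 1.

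Compared with ITS1, the spacer on the other side of 5.8S, ITS2 stood higher with Dbp7-HTP. The ratio of mean coverage, ITS2 over ITS1, was 0.604 and 0.256 in WT and 1.42 and 1.31 with Dbp7-HTP. The log2 difference was 1.79, a 3.47-fold difference, with SDs of 0.87 (WT) and 0.075 (Dbp7-HTP) (n = 2 each, exact permutation test, two-sided, p = 0.333). It was 2.41 without WT replicate 1 and 1.18 without WT replicate 2. ITS2 was thus the less covered spacer in both WT libraries and the more covered one in both Dbp7-HTP libraries. Mean coverage of ITS1 was 143 and 195 RPM in WT and 56.5 and 53.5 RPM with Dbp7-HTP and did not overlap between the strains, whereas that of ITS2 did. Of the windows of ITS1, 10 of 18 were lower and 3 higher by limma, beside 0 of 12 of ITS2.

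Along ITS2, coverage was highest in a broad plateau in the middle. Nucleotides 61 to 140, which make up 34.5% of ITS2, held 56.3 and 52.9% of its coverage in WT and 59.5 and 59.4% with Dbp7-HTP. From 44.6 and 34.7 RPM in WT and 45.0 and 45.4 RPM with Dbp7-HTP at nucleotides 1 to 10, mean coverage reached 133 and 106 RPM in WT and 192 and 165 RPM with Dbp7-HTP at nucleotides 101 to 110. It was down to 17.6 and 28.9 RPM in WT and 37.0 and 34.6 RPM with Dbp7-HTP at nucleotides 161 to 170. In each of these stretches the Dbp7-HTP libraries lay above the WT libraries, at nucleotides 1 to 10 by a small margin. At nucleotides 41 to 50, 71 to 80, 121 to 130 and 141 to 150 the strains overlapped. The share of such stretches over the transcript was not computed. The highest nucleotide was C105 in Dbp7-HTP replicate 1 (203 RPM), G104 in Dbp7-HTP replicate 2 (172 RPM) and U103 in WT replicate 2 (109 RPM). In WT replicate 1 it was A232, the last nucleotide (220 RPM, 35 reads), followed by U84 (207 RPM).

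Of the windows of ITS2, the highest was nucleotides 101 to 120 in WT replicate 2 and in Dbp7-HTP replicate 2, and nucleotides 81 to 100 in WT replicate 1 and, by a small margin, in Dbp7-HTP replicate 1. At nucleotides 101 to 120 the coverage was 119 and 95.6 RPM in WT and 164 and 149 RPM with Dbp7-HTP (log2 difference 0.55, SE 0.47, limma adjusted p = 0.376). At nucleotides 81 to 100 it was 168 and 91.7 RPM in WT and 165 and 135 RPM with Dbp7-HTP (log2 difference 0.26, SE 0.51, limma adjusted p = 0.692). The differences of the other 10 windows ranged from -0.25 to 0.40, and the median over the 12 was 0.23.

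**Figure D4:**
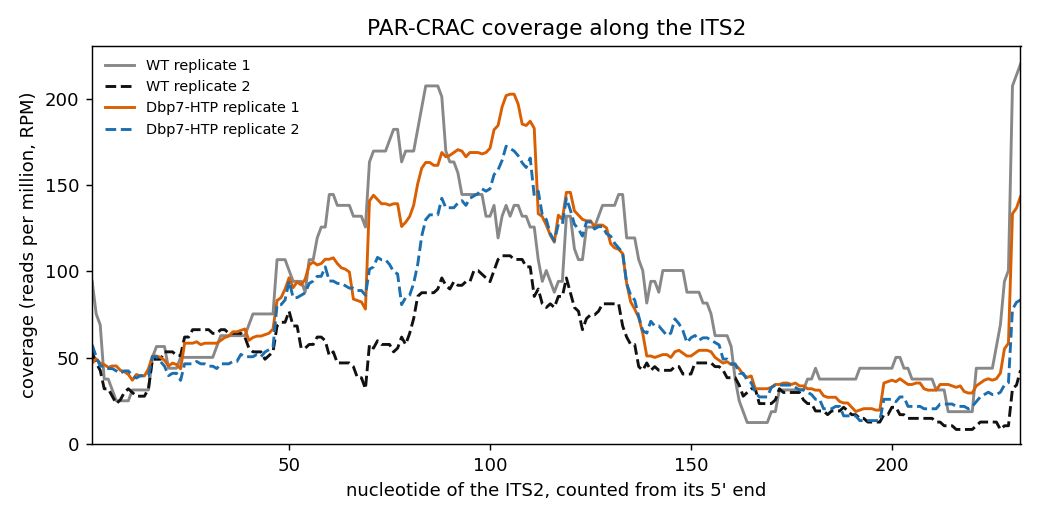
Coverage of each nucleotide of ITS2 in RPM, one line per library, against the nucleotide number from the 5′ end of ITS2. All 4 libraries are highest between nucleotides 61 and 140 apart from a rise at the junction with 25S, which in WT replicate 1 reaches 220 RPM at nucleotide 232.

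The plateau holds one strand of the longest perfect complementarity within ITS2. It spans 9 nucleotides, 35 to 43 with 85 to 93, and both strands are shown in capitals in the stretch from nucleotide 30 to 98.
ITS2, nucleotides 30 to 98: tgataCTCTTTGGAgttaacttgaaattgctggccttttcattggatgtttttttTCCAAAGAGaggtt
In every library the 3′ strand was the more covered one. The 5′ strand had 67.7 and 59.4 RPM in WT and 63.6 and 49.9 RPM with Dbp7-HTP, and the 3′ strand 180 and 91.3 RPM in WT and 166 and 137 RPM with Dbp7-HTP. Just before the 3′ strand lies the longest run of uridines in ITS2, 8 from nucleotide 78 to 85. Summed over this run, 10.7 and 6.36% of the covering reads were substituted in WT and 3.12 and 3.78% with Dbp7-HTP, and the strains did not overlap. The WT values rest on 25 and 18 substitutions.

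The substituted share over all uridines of ITS2 was 7.91 and 8.19% in WT and 8.03 and 8.86% with Dbp7-HTP. The 5 uridines with the highest mean substitution RPM were U111, U107, U121, U116 and U39. At U107 the share was 0% in WT replicate 1 (0 of 22 reads, with a limit of 13.6% from 3 counts), 12% in WT replicate 2 (interval 5.62 to 23.8%), 28.9% in Dbp7-HTP replicate 1 (23.5 to 34.9%) and 18% in its replicate 2 (12.2 to 25.8%). The strains did not overlap, but the intervals of WT replicate 2 and Dbp7-HTP replicate 2 did (edgeR adjusted p = 0.0912 for the counts). At U116 the order was the opposite, with 42.9 and 24.3% in WT and 9.86 and 10.5% with Dbp7-HTP (edgeR adjusted p = 0.235). The WT values at U116 rest on 14 and 37 reads. Without WT replicate 1 the differences, 17.5 points at U107 and -23.4 at U116, were 11.5 and -14.2 points.

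At U111 the share was 10 and 20% in WT and 20.7 and 27.6% with Dbp7-HTP, a difference of 9.17 points that was 4.17 without WT replicate 1 and 14.2 without WT replicate 2. At U39, within the 5′ strand of the complementarity, it was 30 and 41.4% in WT and 24.7 and 32.4% with Dbp7-HTP, and the strains overlapped. The difference there, -7.13 points, was -12.8 without WT replicate 1 and -1.44 without WT replicate 2. At U121 it was 0% in WT replicate 1 (0 of 18 reads, with a limit of 16.7% from 3 counts), 29.7% in WT replicate 2, 21.3% in Dbp7-HTP replicate 1, and 26.9% in its replicate 2, and it too overlapped. The difference at U121 was 9.25 points, with -5.62 without WT replicate 1 and 24.1 without WT replicate 2. None of the 17 tested uridines of ITS2 passed the edgeR test of counts. Of the 24 uridines covered by at least 20 reads in every library, 7 were higher with Dbp7-HTP, 5 lower and 12 overlapping. Higher were thus 29.2% and lower 20.8%, beside 25.8 and 29.6% of the 1363 such uridines of the 35S pre-rRNA. The order at U65, U76 and U97 (higher) and at U79 (lower) rests on counts of 0, whose limits reach past values of the other strain. The other 62 uridines of ITS2, with U39, U116 and U121 among them, had fewer than 20 reads in at least 1 library. They stayed out of this count.

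At the junction of ITS2 with 25S, coverage stepped up in all 4 libraries between nucleotides 229 and 230 of ITS2, by 19.6 to 48.6% of the highest ITS2 coverage of the library. Over the last 10 nucleotides of ITS2 it was 109 and 19.0 RPM in WT and 71.8 and 46.0 RPM with Dbp7-HTP. Over the first 10 nucleotides of 25S it was 1010 and 369 RPM in WT and 420 and 324 RPM with Dbp7-HTP. The strains overlapped on both sides of the junction, and WT replicate 1 was the highest library on both.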

How the data were processed

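PAR-CRAC libraries of WT and Dbp7-HTP yeast, 2 of each, were grouped by the strain and number in their labels. Reads had been mapped by the authors with Bowtie 2 (2.2.4) and counted with pyCRAC, after removal of reads without a T-to-C change. Genome build and annotation release are not given in the sources used here, and positions are those within each block. Along the 35S pre-rRNA the authors deposited coverage as an unscaled signal and substitutions as a raw count. The deposited RNA class scores are reads scaled to 1000000 (RPM) and rounded, and served only to estimate total reads. Totals of the second replicates are stated with the deposited snR190 coverage. Those of the first replicates were estimated from summed 35S coverage, the rRNA class score and the ratio of the 2 seen in the other library of that strain (12.2 in WT, 11.1 with Dbp7-HTP, in covered nucleotides for each rRNA read). RPM values of first replicates are therefore approximate, whereas shares, ratios and percentages within a library need no total.

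Library values were compared by an exact permutation test, on log2 after adding 1 RPM for coverage. Windows of 20 nt, if their mean reached 10 RPM, were compared with limma 3.58.1, and substitution counts per uridine with edgeR 4.0.16 (quasi-likelihood test, total reads as library size, the same minimum) in R 4.3.3. DESeq2 1.42.0 was an alternative. All fits were made over the whole 35S pre-rRNA, with Benjamini-Hochberg adjustment at 0.05. On simulated data, limma recovered 59 of 59 windows changed by 2 log2 units among 331, with 5 false calls, and edgeR 130 of 182 uridines among 1297, with 4 false calls. The simulation gave all windows the same independent spread and all uridines the same dispersion. In the data the spread differed between windows, so the recovery does not give the power for these blocks. Python 3.11.15 was used for the remaining values (numpy 2.4.6, pandas 2.3.3, scipy 1.17.1) and for plots (matplotlib 3.10.9).

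The members, lists and tests were chosen with earlier results of these data known. Named were all windows of 5.8S, windows of ITS2 past the test or highest in a library, up to 3 coverage maxima per library at least 30 nt apart, the 5 uridines of each block with the highest mean substitution RPM, uridines past the edgeR test, the nucleotides at the block junctions and the longest complementarities. Alternatives covered scaling, totals, pseudocount, window size, filter, tool, a replicate block and leaving out libraries. The coverage offset, the count of uridines without overlap and the stretches and steps within blocks were added after the data were seen. The snoRNA values were not used. Replicates were compared first and were not duplicates, since counts per uridine of 35S differed with a chi-square of 17.0 per degree of freedom between the WT libraries and 10.5 between the Dbp7-HTP libraries.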

Additional observations from a re-analysis of the deposited data

How the results depend on the processing

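Depth and the number of libraries limit the precision. WT replicate 1 had 26 reads at the least covered nucleotide of 5.8S and 2 at that of ITS2, and 62 of 86 uridines of ITS2 had fewer than 20 reads in at least 1 library. Of 162 recomputed values, 136 kept their direction or count. A replicate block leaves a difference in means unchanged, so the differences recomputed that way could not turn.

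Scaled to 35S coverage, the log2 differences in mean coverage were -0.23 for 5.8S and -0.59 for ITS2, both reversed. Without 25S in the denominator, the shares of 5.8S and ITS2 were 23.1 and 0.79 points higher with Dbp7-HTP. The median over the nucleotides of ITS2 gave -0.0648. Leaving out each library in turn, the ITS2 difference ranged from -0.20 (without WT replicate 2) to 0.58, and the difference at U121 of ITS2 from -5.62 points (without WT replicate 1) to 24.1 (without WT replicate 2). The cause was not tested.

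With a replicate block, 2 windows of 5.8S were higher (nucleotides 1 to 20 and 21 to 40, limma adjusted p = 0.00748 and 0.0137), 2 uridines had more substitutions and 1 had more per covering read. The block changed no other call. Same-numbered libraries deviated together with a correlation of 0.125 over 334 windows and 0.295 over the 20 of 5.8S and ITS2. Neither the labels nor the methods state that a number marks a shared experiment. The results of the study, however, compare the strains within each independent experiment and set a tagged library against the WT library of the same number. Some edges of 5.8S coverage went with the number, such as the large step between nucleotides 152 and 153 in the first replicates. Others, such as that between nucleotides 32 and 33, did not. With 2 pairs, these values do not settle whether the block belongs in the fit, and the calls at both windows depend on it. With TMM factors, or DESeq2 with total reads as size factors, 2 uridines had more substitutions, with no filter 5 of 126, and with the coverage offset 0. With the summed substitutions as library size, 7 had fewer. Leaving out each library in turn, the windows that were higher ranged from 0 to 6, the uridines with more substitutions from 0 to 17, those with fewer from 0 to 4, those with more per covering read from 0 to 6 and those with fewer per covering read from 0 to 4, each highest without WT replicate 1 (those with fewer substitutions also without WT replicate 2). A strain left with 1 library is assumed to vary like the other.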
